A study of Mus musculus with 8 samples.

Results

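The activin branch of TGF-beta signalling was followed through 10 genes, which encode activin and related ligands (Inhba, Inhbb, Gdf11), follistatin and its relatives (Fst, Fstl3, Fstl1) and the receptors (Acvr2a, Acvr2b, Acvr1b, Acvr1c). All 10 were measured, among 18194 genes in all, and they were read by 20 of 45101 probe sets, each annotated to exactly 1 of these symbols. A probe set is a group of short array probes against 1 transcript, and the brightest (highest mean of all 8 arrays) stood for the gene. The samples were mandibular arches, the embryonic tissue of the lower jaw, taken at embryonic day 11.5 from C57BL/6J mice of undetermined sex. The control group held 4 Alk5 fl/fl samples, in which the floxed alleles are present and no Cre driver is named. The mutant group held 4 Wnt1-Cre;Alk5 fl/fl samples, which carry the same floxed alleles and a Cre driver active in the neural crest lineage. Alk5, the targeted gene, appears on the arrays as Tgfbr1 and encodes the type I TGF-beta receptor. Arch cells outside the neural crest lineage, such as epithelium, endothelium and muscle precursors, keep the receptor, and because no control carries the driver, effects of Cre and of the deletion cannot be told apart. The comparison asked how loss of the receptor in neural crest cells changes the arch around the developing muscles.

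Activins are dimers of the inhibin beta subunits. The products of Inhba and Inhbb form activin A and activin B, and Gdf11 is a related ligand. These ligands bind the type II receptors encoded by Acvr2a and Acvr2b, which activate a type I receptor, chiefly the product of Acvr1b and for some ligands that of Acvr1c or Tgfbr1, and the signal passes to the nucleus through Smad2 and Smad3. Follistatin and its relative encoded by Fstl3 bind activins, Gdf11 and myostatin outside the cell and keep them from the receptors. The protein encoded by Fstl1 shares a follistatin domain but is not a strong activin antagonist, and it is known as a secreted protein of mesenchyme. In mice, loss of Inhba or Fst disturbs the teeth and palate, and follistatin favours muscle growth.

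Follistatin fell and the type II receptor gene Acvr2b rose in the mutant arches, and these were the 2 of 10 members to pass the test. Fst was 3.14-fold lower, with a log2 fold change of -1.65 ± 0.261 (± SE, n = 4 against 4, limma adjusted p = 0.0157). Acvr2b was 1.44-fold higher, with a log2 fold change of 0.52 ± 0.107 (limma adjusted p = 0.0412). Over all genes the same test called 2.14% (390 of 18194), with 1.31% lower and 0.835% higher in the mutants. At an unadjusted limma p under 0.05 there were 4 members of 10, against 13.5% of all genes, and the added ones were Inhba and Fstl1, both with lower mutant means. The median log2 fold change of the 10 was -0.01, and that of all genes also -0.01.

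Some features of the arrays bear on the values below. Mutant replicate 3 had a compressed range (SD over probe sets 2.42, the others 2.52 to 2.56), and over genes below the lower quartile of brightness it read 0.196 above the mean of the other mutants on the log2 scale. The 8 arch mesenchyme markers examined (Dlx5, Dlx6, Hand2, Msx1, Prrx1, Twist1, Barx1 and Gsc) were all above the median gene level. Their mean log2 value was 11.30 to 11.42 in controls and 11.001 to 11.21 in mutants. The test passed 0 of 8, and 6 had an unadjusted limma p under 0.05, Dlx5 being higher in the mutants and the others lower. All but Dlx5 lay below 0, and the median log2 fold change of the list was -0.24, against -0.01 for all genes. Macrophage markers rose, with 7 of 8 past the threshold and a mean log2 value of the list of 6.999 to 7.16 in controls and 7.93 to 8.43 in mutants. Of the epithelial (8), endothelial (6), muscle (8) and erythroid (5) markers measured, 0 passed in any list. Of 7 neuronal and glial markers 1 passed, Tubb3, which fell, and 5 of the 7 lay below 0. The mean log2 value of that list was 7.09 to 7.49 in controls and 6.83 to 6.98 in mutants. The muscle list varied widely within both groups, with a mean log2 value of 7.82 to 9.49 in controls and 7.87 to 9.04 in mutants. In whole arches fewer cells of a type and less RNA per cell cannot be told apart, and the part of cell composition in the changes below was not tested. Tgfbr1 itself read 12.82, 12.71, 12.90 and 12.73 in controls 1 to 4 and 12.97, 12.99, 12.98 and 12.99 in mutants 1 to 4 (log2 values). Every mutant lay above every control (two-sided exact permutation p = 0.0286), as for 3.27% of all genes (10.3% had no overlap in either direction). The log2 fold change of 0.19 ± 0.0673 did not pass over all genes (limma adjusted p = 0.232). The change was 0.33 over the mean of its 3 probe sets and 0.51 in the most variable one, with limma adjusted p-values of 0.251 and 0.274. Tgfbr1 was thus not lower in the mutants, and whether its probes lie in the deleted part is not known here. The labels number the samples without stating separate embryos or litters, so the p-values measure the spread between these samples, which may be partly technical.

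RefSeq promoters (GRCm38.p6) matched 9 of the 10 members, all but Fst, and those of Inhba, Fstl1 and Acvr2b are given because these genes had the largest changes after Fst. Each shows the 250 bases before the start, 5′ to 3′ on the gene's strand, which is the plus strand for all of them. Capitals mark a match to the Smad-binding motif CAGAC, the palindromic Smad site GTCTAGAC or the AP-1 motif TGANTCA, searched on both strands, and no motif contains another.
Inhba chr13:16011601-16011850: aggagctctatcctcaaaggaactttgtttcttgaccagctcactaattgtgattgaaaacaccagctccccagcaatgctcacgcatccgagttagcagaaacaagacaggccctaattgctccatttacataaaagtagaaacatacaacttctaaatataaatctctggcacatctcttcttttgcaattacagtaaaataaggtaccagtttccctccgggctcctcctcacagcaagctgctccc
Fstl1 chr16:37776805-37777054: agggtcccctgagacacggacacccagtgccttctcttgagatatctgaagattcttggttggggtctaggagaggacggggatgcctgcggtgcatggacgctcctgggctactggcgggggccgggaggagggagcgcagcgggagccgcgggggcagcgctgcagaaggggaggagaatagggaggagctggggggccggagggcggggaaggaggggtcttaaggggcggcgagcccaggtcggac
Acvr2b chr9:119401928-119402177: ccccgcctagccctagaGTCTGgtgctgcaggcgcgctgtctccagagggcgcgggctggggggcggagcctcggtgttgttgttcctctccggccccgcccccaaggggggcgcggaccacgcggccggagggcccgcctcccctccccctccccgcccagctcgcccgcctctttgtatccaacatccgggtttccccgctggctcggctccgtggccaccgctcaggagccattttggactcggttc
The Acvr2b window held 1 CAGAC match, on the opposite strand, beginning 233 bases before the start. The Inhba and Fstl1 windows held 0 matches to any of the motifs. Of the 9 members with an entry, 3 held CAGAC (Fstl3, Acvr2a and Acvr2b), against 42.2% of 32851 promoters. The palindrome and the AP-1 motif matched 0 of the 9, against 0.167% and 6.75% of all promoters. A match is a stretch of letters, and its absence from this window says nothing about a factor's binding elsewhere.

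Among the ligands, Inhba, the subunit of activin A, had the largest difference, and it did not pass the test. Its log2 values were 8.13, 8.19, 8.004 and 7.15 in controls 1 to 4 and 6.79, 7.16, 7.45 and 6.53 in mutants 1 to 4. Controls 1 to 3 lay above every mutant, while control 4 lay below mutants 2 and 3, so the groups overlapped. The log2 fold change was -0.88 ± 0.258 (95% interval -1.46 to -0.31, limma adjusted p = 0.141). Control 4 stood 85.6% of the distance from the mean of controls 1 to 3 to the mutant mean. Without control 4 the log2 fold change was -1.13 and passed (limma adjusted p = 0.0209). Of 8 fits with a single array left out, this was the 1 that passed, and the limma adjusted p ran up to 0.368. Without both control 4 and mutant 3 the log2 fold change was -1.28 (limma adjusted p = 0.00549). That setting was chosen after seeing the data, and 6.19% of all genes passed in it. A second, dim probe set of Inhba had a mean log2 value of 4.96 and a log2 fold change of 0.035, and over the mean of both the change was -0.42 (limma adjusted p = 0.189).

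Inhbb, the subunit of activin B, was close between groups in all but 1 array. Its log2 values were 6.81, 6.75, 6.84 and 6.81 in controls 1 to 4 and 6.75, 6.97, 7.44 and 6.88 in mutants 1 to 4. Mutant 3, the array that read high on dim probe sets, gave the top value, and the log2 fold change of 0.21 had a 95% interval from -0.09 to 0.51 (limma adjusted p = 0.568). Gdf11, a ligand known from axial patterning and palate formation, behaved alike, with log2 values of 6.25 to 6.43 in controls and 6.29, 6.23, 6.97 and 6.44 in mutants 1 to 4. Its log2 fold change was 0.15 (limma adjusted p = 0.725), and without mutant 3 it was -0.011. Both genes were read below the median probe-set brightness of all genes (7.63), where RMA compresses differences, and the intervals allow changes of up to 0.51 and 0.49 on the log2 scale.

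**Figure D1:**
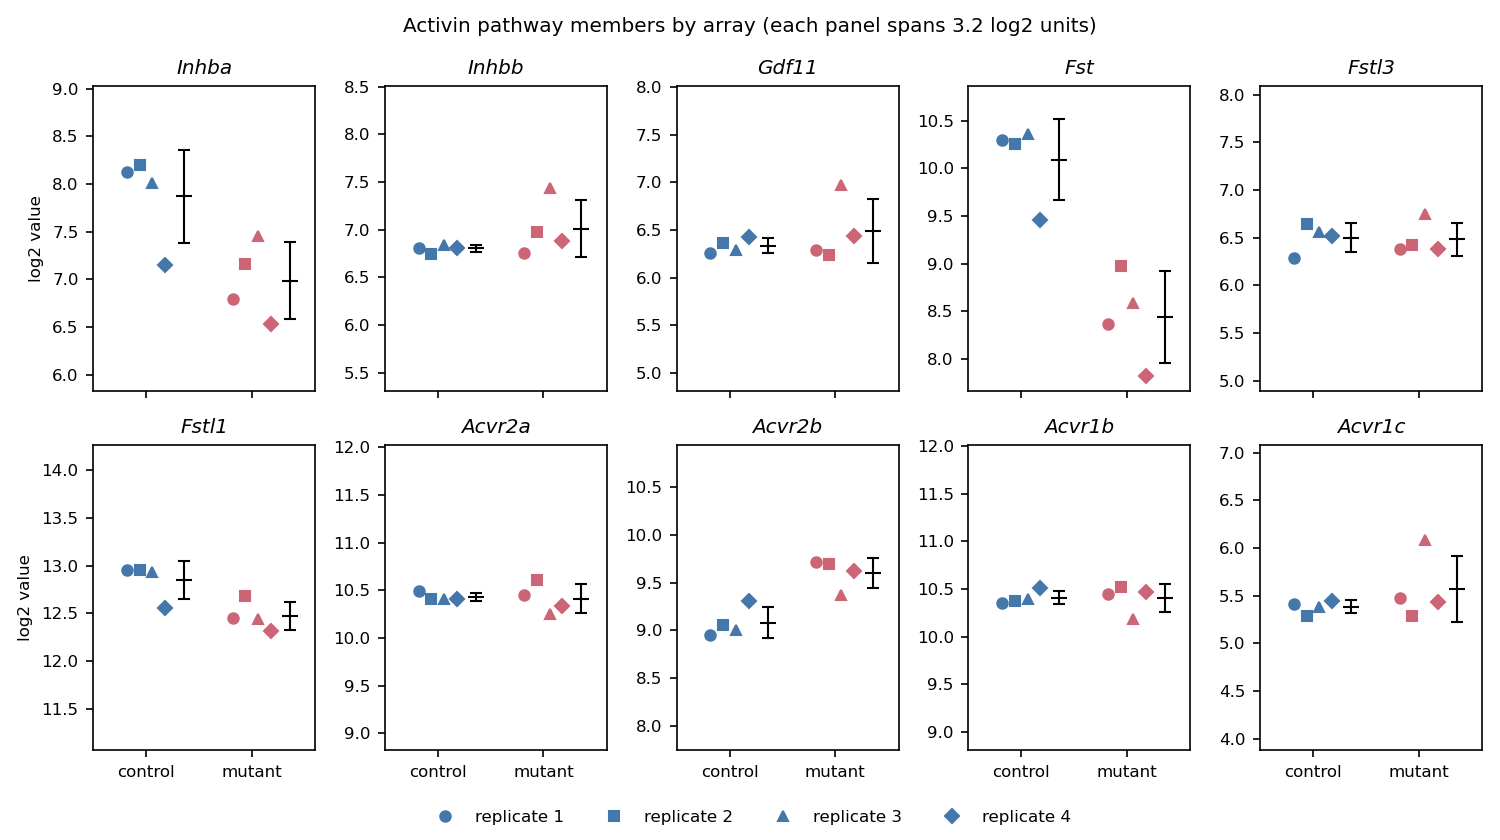
Log2 value (y axis) of the 10 members in each of the 4 control and 4 mutant samples, with 1 marker shape per replicate number and the group mean ± SD in black; every panel spans the same number of log2 units. Fst and Acvr2b separate the groups. Control replicate 4 lies apart from the other controls in Fst, Inhba, Fstl1 and, less widely, Acvr2b, and mutant replicate 3 is the highest array for Inhbb, Gdf11, Fstl3 and Acvr1c.

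Follistatin showed the largest change of the 10 genes. The log2 values of Fst were 10.29, 10.25, 10.36 and 9.45 in controls 1 to 4 and 8.36, 8.98, 8.59 and 7.82 in mutants 1 to 4. Every mutant lay below every control, which was so for 7.02% of all genes (10.3% had no overlap in either direction), and control 4 was the nearest control to the mutants. The group means were 10.09 ± 0.425 and 8.44 ± 0.483 (SD, n = 4 each), and the 95% interval of the log2 fold change was -2.24 to -1.06. The second Fst probe set gave the same order of groups, with 9.39, 9.03, 9.26 and 8.34 in controls and 7.67, 8.01, 7.70 and 6.97 in mutants, and a log2 fold change of -1.42 ± 0.259. Tested over all 45101 probe sets, both passed (limma adjusted p = 0.0234 and 0.0403), where 0.845% of probe sets did.

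In Fst, control 4 stood 45.4% of the distance between the mean of controls 1 to 3 and that of the mutants, and without it the log2 fold change was -1.86 (limma adjusted p = 0.00412). The call rested on the remaining controls: the limma adjusted p was 0.0537 without control 1, 0.0695 without control 2 and 0.0674 without control 3, at log2 fold changes of -1.58, -1.60 and -1.56. It stayed under the threshold with any mutant array left out.

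Fstl3, which encodes the other strong antagonist, did not differ detectably. Its log2 values were 6.28, 6.64, 6.56 and 6.51 in controls 1 to 4 and 6.38, 6.42, 6.74 and 6.38 in mutants 1 to 4, so that the groups were interleaved. The log2 fold change was -0.019 (95% interval -0.26 to 0.23, limma adjusted p = 0.959). Fstl1 was read by a bright probe set, with log2 values of 12.96, 12.96, 12.94 and 12.55 in controls 1 to 4 and 12.46, 12.68, 12.44 and 12.32 in mutants 1 to 4. As with Inhba, controls 1 to 3 lay above every mutant and control 4 within the mutant range. The log2 fold change was -0.38 ± 0.115 (limma adjusted p = 0.158), and the second probe set gave -0.39 ± 0.122. Control 4 stood 82.8% of the way to the mutants, and without it Fstl1 passed, at -0.48 (limma adjusted p = 0.0382). Of 8 fits with a single array left out, that was the 1 in which Fstl1 passed.

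The fall of Fst was larger than the difference in either relative when set against it within each array. The log2 difference Fst minus Fstl1 went from a mean of -2.76 in controls to -4.04 in mutants, a shift of -1.27, and Fst minus Fstl3 shifted by -1.63, from 3.59 to 1.96. In both, 4 of 4 mutants lay below every control (two-sided exact permutation p = 0.0286 each, the smallest that 70 relabelings can give). Within the ligands, Inhba minus Inhbb shifted by -1.09, from 1.07 to -0.02, with 4 of 4 mutants below every control (exact permutation p = 0.0286), and by -0.60 over the mean of each gene's probe sets. Acvr2b minus Acvr2a shifted by 0.54 in the opposite direction, from -1.35 to -0.81, with 4 of 4 mutants above every control (exact permutation p = 0.0286). Adjusted over these 4 pairs the exact permutation p was 0.0286 for each. The adjustment could not change it, because all 4 stood at the same smallest value, so it adds no support. The pairs were chosen with earlier results known, and Fstl3 and Inhbb are dim, so the differences show unequal change and not that the dimmer gene was constant. Inhba too lay below the median gene level (mean log2 value 7.43 against 7.63), where RMA compresses differences.

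**Figure D2:**
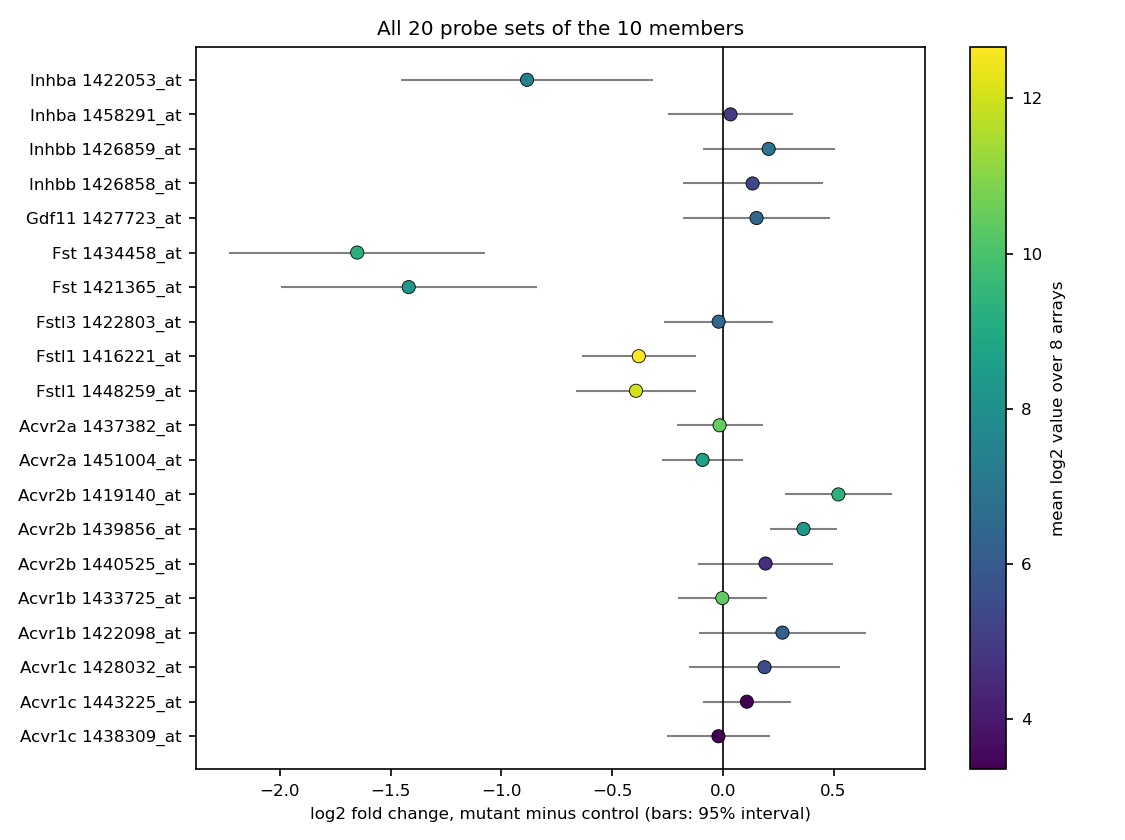
Log2 fold change, mutant minus control (x axis), of each of the 20 probe sets with its 95% interval from the fit over all probe sets; colour gives the mean log2 value over the 8 arrays. Both Fst probe sets lie at -1.65 and -1.42, both Fstl1 probe sets near -0.38, and the Acvr2b probe sets run from 0.52 at the brightest to 0.19 at the dimmest.

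Of the type II receptors, Acvr2b rose and Acvr2a did not differ detectably. The log2 values of Acvr2b were 8.95, 9.06, 9.01 and 9.31 in controls 1 to 4 and 9.72, 9.70, 9.37 and 9.62 in mutants 1 to 4. Every mutant lay above every control, as for 3.27% of all genes, with mutant 3 only just above control 4. The means were 9.08 ± 0.16 and 9.60 ± 0.159 (SD, n = 4 each). Control 4 stood 51.3% of the distance from the mean of controls 1 to 3 to the mutant mean. When the arrays were quantile normalized once more, mutant 3 read 9.63 beside 9.65, 9.65 and 9.61 in mutants 1, 2 and 4, and the log2 fold change was 0.60 (limma adjusted p = 0.0078).

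The second Acvr2b probe set separated the groups more widely relative to their spread. It read 8.11, 8.09, 8.07 and 8.13 in controls 1 to 4 and 8.50, 8.39, 8.43 and 8.52 in mutants 1 to 4, a log2 fold change of 0.36 ± 0.0671. Over all 45101 probe sets this one passed (limma adjusted p = 0.042) and the brightest did not (limma adjusted p = 0.067). The third, with a mean log2 value of 4.65, had a log2 fold change of 0.19 and did not pass. The call on Acvr2b was lost without control 1, 2 or 3 or mutant 1, 2 or 4, with limma adjusted p-values of 0.088 to 0.155 and log2 fold changes of 0.48 to 0.51. It was kept without control 4 (0.60, limma adjusted p = 0.0174) and without mutant 3 (0.60, limma adjusted p = 0.0157).

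Acvr2a, the other type II receptor gene, read 10.49, 10.41, 10.41 and 10.41 in controls 1 to 4 and 10.46, 10.60, 10.25 and 10.34 in mutants 1 to 4 (log2 values). The mutants lay on both sides of the controls, with a log2 fold change of -0.015 and a 95% interval from -0.21 to 0.18 (limma adjusted p = 0.959). The type I receptor gene Acvr1b, whose product is the main partner for activin, had log2 values of 10.35, 10.38, 10.40 and 10.51 in controls 1 to 4 and 10.45, 10.52, 10.18 and 10.47 in mutants 1 to 4. Its log2 fold change was -0.0025 (95% interval -0.20 to 0.20, limma adjusted p = 0.994). For both genes mutant 3 gave the lowest value, and after a further quantile normalization the changes were 0.045 and 0.060, on the other side of 0. The intervals of both leave out a change as large as the 0.52 of Acvr2b.

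Acvr1c, whose product serves activin B and nodal, was at the dim end of the arrays. Its brightest probe set read 5.42, 5.29, 5.38 and 5.45 in controls 1 to 4 and 5.47, 5.29, 6.08 and 5.44 in mutants 1 to 4, below the lower quartile of all genes (5.70) in every array but mutant 3. The log2 fold change was 0.19 (95% interval -0.15 to 0.53, limma adjusted p = 0.666), and without mutant 3 it was 0.018. The other probe sets of Acvr1c had mean log2 values of 3.36, and a change of this gene could not be judged from any of them. The second probe set of Acvr1b was also dim (mean log2 value 6.17), with a log2 fold change of 0.27 that did not pass (limma adjusted p = 0.688).

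**Figure D3:**
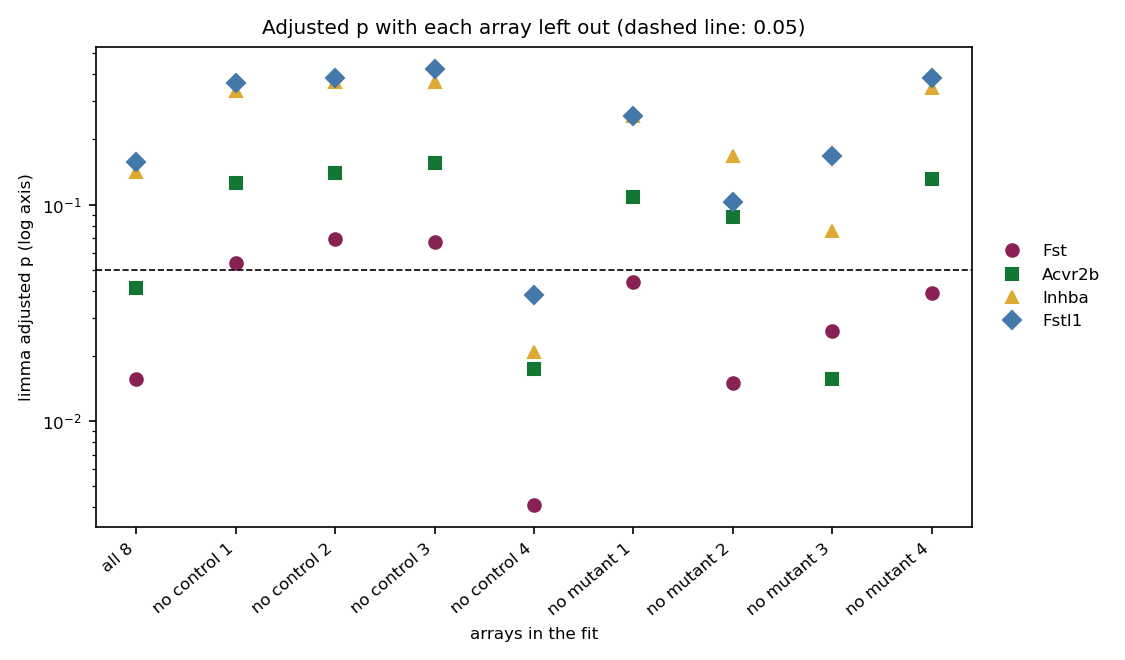
Limma adjusted p (y axis, log scale) of Fst, Acvr2b, Inhba and Fstl1 in the fit of all 8 arrays and with each array left out (x axis); the dashed line is the threshold of 0.05. With control replicate 4 left out all 4 genes lie under the line, and with control 1, 2 or 3 left out none does.

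The count of members past the threshold depended most on the control arrays. With control 4 left out, 4 of 10 members passed (Fst, Inhba and Fstl1 lower, Acvr2b higher), when 2.8% of all genes did. Without control 1, 2 or 3 in turn 0 of 10 passed, when 0.83%, 0.599% and 0.572% of all genes did. Control 4 was the lowest control for Fst, Inhba and Fstl1, at 9.45, 7.15 and 12.55. Mutant 4 was likewise the lowest mutant for these genes, at 7.82, 6.53 and 12.32. For Acvr2b control 4 was the highest control, at 9.31, while mutant 4, at 9.62, lay within the range of the other mutants. The muscle markers Myod1, Myog, Actc1 and Myl1 were lowest in replicate 4 of each group, and Myf5, Pax7, Msc and Tcf21 were not lowest there in both. Why control 4 lies nearer to the mutants was not tested, and the labels give it no feature of its own.

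Of the other genes of the pathway, 2 of 34 measured passed, when 2.14% of all genes did. A list of 36 further genes held other ligands, coreceptors, antagonists, the proprotein convertases that cleave the ligand precursors, and Smad proteins with their partners, of which Mstn and Gdf1 were not analysed here. Those past the threshold both fell, the remaining 32 did not pass, and 21 of the 34 (61.8%) lay below 0, against 52.0% of all genes. The median log2 fold change was -0.09, against -0.01 for all genes and -0.05 for genes above the median level, where 18 of the 34 lay. Pcsk5, a convertase that processes precursors of TGF-beta family ligands, including that of Gdf11, fell by 0.91 ± 0.173 (log2 fold change ± SE, limma adjusted p = 0.0307). It read 10.20, 10.64, 10.41 and 9.78 in controls 1 to 4 and 9.42, 9.54, 9.10 and 9.31 in mutants 1 to 4. The groups did not overlap, with all mutants below all controls, as for 7.02% of all genes. Its second probe set had a log2 fold change of -0.85 that did not pass over all probe sets, and its 3 dim ones lay between -0.12 and -0.22.

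Skil, an inhibitor of Smad proteins that the pathway itself induces, fell by 0.54 ± 0.0903 (limma adjusted p = 0.0189). Its log2 values were 10.98, 10.84, 10.84 and 10.86 in controls 1 to 4 and 10.37, 10.48, 10.10 and 10.38 in mutants 1 to 4, with control 4 among the other controls. A dim second probe set had a log2 fold change of -0.04. Both calls were lost without control 1, 2 or 3 or mutant 4, that on Pcsk5 also without mutant 1, and both over the mean of the probe sets, at -0.45 and -0.29. Of the members of this list that did not pass, the Smad regulators Ski (-0.42) and Smad7 (-0.39), the receptor gene Acvr1 (-0.40) and the Gdf11 and myostatin antagonist gene Wfikkn2 (-0.54) had the largest log2 differences, with limma adjusted p-values of 0.0667, 0.0688, 0.0887 and 0.135. These last genes were chosen after their values were seen.

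**Figure D4:**
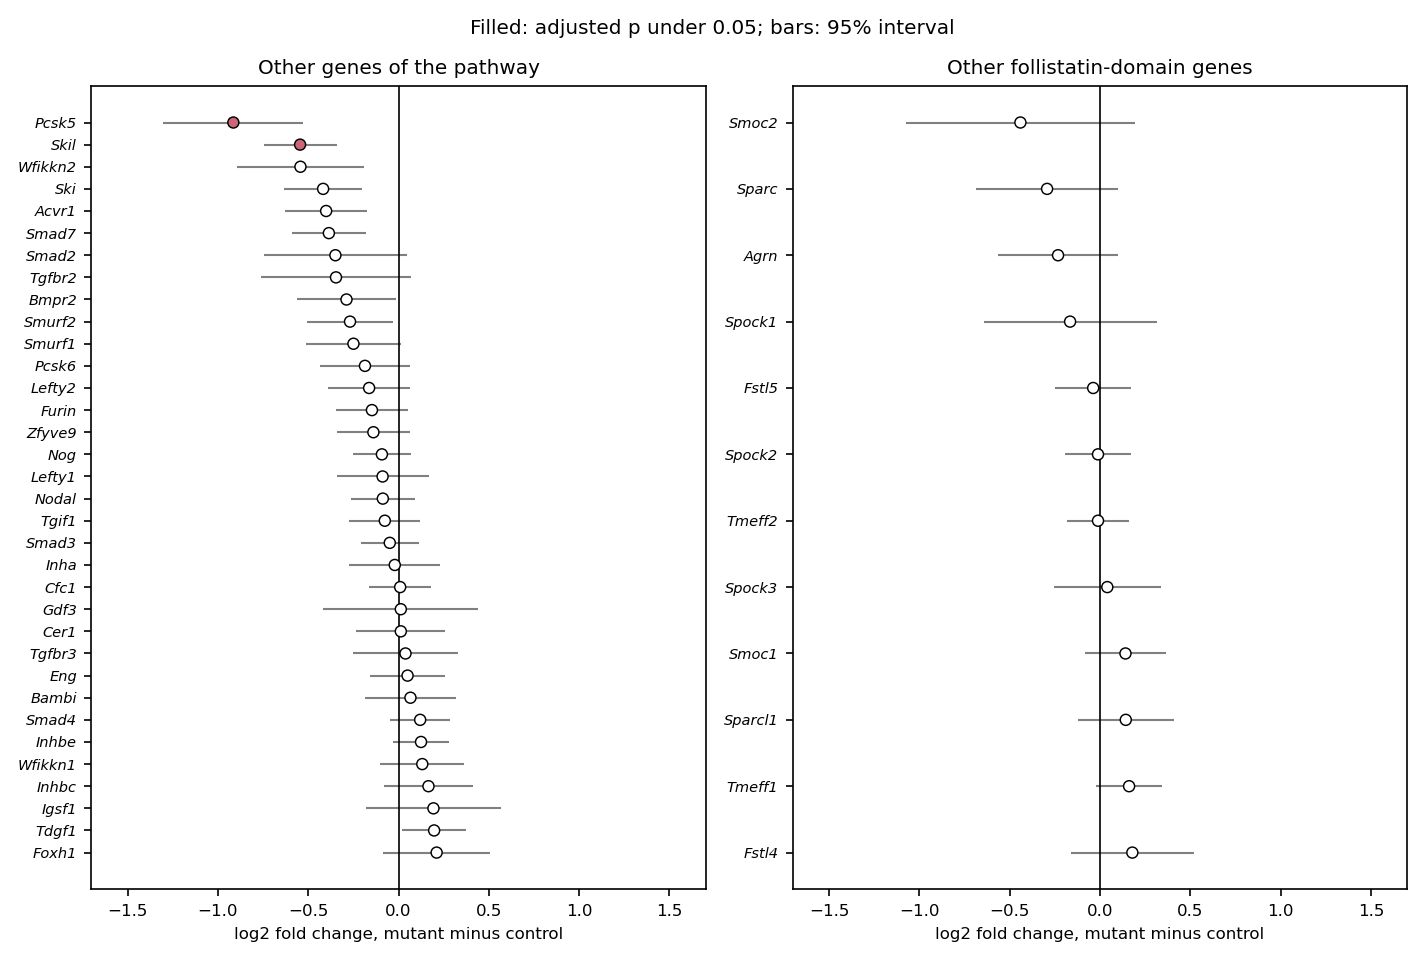
Log2 fold change, mutant minus control, with 95% intervals (x axis) for the 34 other genes of the pathway (left) and 12 other genes with a follistatin-like domain (right); filled points have a limma adjusted p under 0.05. Pcsk5 and Skil are the filled points, at -0.91 and -0.54.

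Other genes whose proteins carry a follistatin-like domain were not called. Of 12, 0 passed in limma, 0 had an unadjusted p under 0.05, 7 lay below 0, and the median log2 fold change was -0.01. The smallest p belonged to Tmeff1 (0.16, limma adjusted p = 0.437) and Sparc (-0.29, limma adjusted p = 0.532), which encode a transmembrane protein and a matrix protein. Without both control 4 and mutant 3, a setting chosen after seeing the data, Tmeff1 passed (0.24, limma adjusted p = 0.0371), when 6.19% of all genes did.

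The genes whose pattern over the 8 arrays was most like that of Fst, searched among 9096 genes above the median level, were Dact1, a regulator of WNT signalling (Pearson r = 0.991), Col1a2 (0.99), the mesenchymal cadherin gene Cdh11 (0.989), Col1a1 (0.987) and the FGF receptor gene Fgfr1 (0.984). The genes most opposite to Fst were Tspan13 (-0.988), Spsb4 (-0.981) and Ndn (-0.979). Acvr2b was most like Nqo2 (0.987), Fam199x (0.985), the chromatin remodeller gene Chd7 (0.984), Col18a1 (0.984) and the arch homeobox gene Dlx2 (0.982), and most opposite to Aplp1 (-0.994), Clu (-0.985) and Tuba4a (-0.962). These correlations are descriptions over 8 arrays that fall into 2 groups, so they share the group difference, the position of control 4 and the range of mutant 3, and the highest of so many is high by selection. Of the 5 most like Fst, Col1a1 and Col1a2 passed the group test, with log2 fold changes of -1.08 and -0.91. Of the other genes named here, Spsb4, Fam199x, Chd7, Dlx2, Aplp1 and Tuba4a also passed.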

How the data were processed

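Log2 expression values per probe set, as deposited by the authors for 8 Affymetrix arrays, were used without change. Per the submitters' processing notes they were made with RMA (version not given in the sources used here), which corrects background, equalizes distributions and compresses differences of dim probe sets. Detection calls were not used here, and the number of arrays limits precision. The platform annotation gave 1 gene symbol for 34958 of 45101 probe sets, several for 932 and none for 9211; 1 probe set that names Acvr2a and another gene was left out. Groups were compared in limma 3.58.1 (R 4.3.3; lmFit, eBayes, no covariates), adjusting by Benjamini-Hochberg over 18194 genes, or over all probe sets where said, with a threshold of 0.05. The named genes were the 10 members, Tgfbr1, list genes past the threshold (or, with none past it, the 2 of smallest p), and the 5 most alike and 3 most opposite genes of each member past it; 4 further pathway genes were named after their values were seen. Members, lists and pairs were chosen with earlier results of these data known. On simulated arrays of 18194 genes, 50.7% of changes of 0.5, 90.7% of 1 and 99.7% of 2 on the log2 scale were recovered, and 4.29% of calls were false. The simulated noise was independent for each gene and array. It held no shift like that of control 4 and no compressed array like mutant 3, so these rates need not hold for the real arrays. Alternatives covered the replicate number as a block, each array left out, probe set choice, filters, normalization, variance model, array weights and threshold.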

Additional observations from a re-analysis of the deposited data

Results flagged for a closer look

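Of 46 groups of 4 arrays examined for the member and Tgfbr1 probe sets, 6 held an array whose gap to its neighbour took more of the group's range than Dixon's critical value at the 95% level, where chance gives about 1 in 20; over all probe sets 5.92% of control and 9.78% of mutant groups did. Control replicate 4 was the lowest control for Fst, at 9.45 against 10.25 in the next, and for both Fstl1 probe sets, at 12.55 against 12.94 and 11.95 against 12.34. Mutant replicate 3 was the highest mutant for Fstl3, at 6.74 against 6.42, and the lowest for the second Tgfbr1 probe set, at 6.51 against 7.22. Control replicate 1 was the highest control for Acvr2a, at 10.49 against 10.41, within a group that spanned little.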

How the results depend on the processing

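Fst kept its direction in 20 of 20 alternatives and its call in 17, Acvr2b its direction in 20 of 20 and its call in 10. These tallies include the threshold of 0.1, which reuses the main fit and could lose neither. They also include the setting without both control 4 and mutant 3. Of the 10 members, 2 passed with all arrays, when 2.14% of all genes did. With single arrays left out 0 to 4 did, when 0.572% to 3.4% of all genes did. It was 1 with the most variable probe set, with all probe sets tested together and with median centring, where Acvr2b was lost, and 4 with array weights and, chosen after seeing the data, without both control 4 and mutant 3, settings in which 7.45% and 6.19% of all genes passed. Of the pathway list 2 passed, 0 to 3 with single arrays left out, 1 over the mean of probe sets or with the most variable one, 4 above the median level, with quantile normalization, with trend and robust variance and without both arrays, and 5 with array weights or a threshold of 0.1. The shares of all genes rose in these settings too, to 3.44% above the median level, 3.41% with quantile normalization, 3.18% with trend and robust variance and 3.65% at a threshold of 0.1. Without both arrays the follistatin-domain count went from 0 to 1. Of the 20 member probe sets 3 passed, 0 to 4 with single arrays left out and 5 without both. Tgfbr1 lay at 0.17 to 0.23 with single arrays left out, at 0.33 over the mean of its probe sets and 0.51 with the most variable one, and passed with trend and robust variance (0.19, limma adjusted p = 0.0282). Acvr1b changed sign over the mean of probe sets (0.13), with the most variable one (0.27), quantile normalization (0.060), array weights (0.070) and without both arrays (0.11), and ran from -0.040 to 0.072 with single arrays left out. Acvr2a did so with quantile normalization (0.045), array weights (0.043) and without both (0.031), and ran from -0.078 to 0.039. Fstl3 ran from -0.107 to 0.027 and Gdf11 from -0.011 to 0.236 with single arrays left out.

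The within-array shifts ran from -1.38 to -1.12 (Fst minus Fstl1), -1.85 to -1.46 (Fst minus Fstl3), 0.47 to 0.62 (Acvr2b minus Acvr2a) and -1.33 to -0.96 (Inhba minus Inhbb) with single arrays left out, with an adjusted exact permutation p of 0.0286 without a control and 0.0571 without a mutant. Without both arrays they were -1.45, -1.81, 0.64 and -1.35, at an adjusted exact permutation p of 0.1, the smallest that design allows. The labels state no pairing by replicate number. Same-numbered arrays deviated together with correlations of -0.12 to 0.41, and 1 of 4 matched its own number best (number 4, at 0.41). These 4 correlations cannot decide whether the samples were paired. With the replicate number as a block 2 members passed, Fst and Inhba (limma adjusted p = 0.0028 and 0.0357), and Acvr2b did not (0.0698). In sign flips over the replicate block the shifts were -1.27, -1.63, 0.54 and -1.09 (exact permutation p = 0.125 each, the smallest possible). The cause of these differences between alternatives was not tested.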
